A study of Homo sapiens with 8 samples.

Results

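The transcripts described here are 10 genes of the circadian clock, out of 21059 genes in the deposited expression table. They are *CLOCK*, *ARNTL*, *PER1*, *PER2*, *PER3*, *CRY1*, *CRY2*, *NR1D1*, *NR1D2* and *DBP*, and they were taken by gene symbol. By symbol, 9 of the 10 were found. The table carries the symbol AC129492.1 on the identifier ENSG00000179094.16, which the gene name reference pairs with *PER1*, so *PER1* was taken by identifier and the counts are given with and without it. RNA-Seq was done on MDA-MB-157, an established human breast cancer line that is negative for the estrogen receptor. The cells were kept in T25 flasks in serum-free medium, and RNA was taken after 48 hours at a glucose level of 5 mM, called low glucose, or of 25 mM, called high glucose and used to model hyperglycemia. Per the study's methods, all cells were first conditioned at low glucose, and only the high glucose cells were then moved to 25 mM. Each level had 4 libraries. No library with mannitol or another osmotic control was among the 8 libraries, so glucose and osmolarity cannot be told apart in these data. In assays of proliferation and migration, the study compared controls with and without mannitol and reports no difference. The data come from a single cell line, and the labels do not say whether the replicates were separate cultures or experiments. The p-values therefore measure only the spread between these libraries, which may be technical.

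The mammalian clock is a feedback loop of transcription. CLOCK and ARNTL (also called BMAL1) pair and bind E-box elements, where they activate the period and cryptochrome genes, whose proteins return to the nucleus and inhibit the pair. In a further loop, the nuclear receptors NR1D1 and NR1D2 (REV-ERB alpha and beta) repress *ARNTL*, the ROR receptors compete with them for the same DNA elements, and DBP carries the rhythm to other genes through D-box elements. Most cell types hold such a loop, and a change of serum or medium can set its phase in cultured cells. All libraries were taken at 48 hours, so a shift of phase and a change of mean level cannot be told apart.

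Values are CPM, read counts put on a common library size, which the authors scaled by the TMM method (trimmed mean of M values). The libraries held an estimated 9721648 to 12482546 reads, and 3 reads, taken as the floor, equaled 0.212 to 0.267 CPM. Of the cell markers, *VIM* averaged 4091 CPM in the low and 2967 CPM in the high glucose libraries. *ESR1* did not exceed 0.170 CPM and the leukocyte gene *PTPRC* did not exceed 0.178 CPM in any library, which goes with the labels. Of the other receptor genes, *PGR* lay at 4.33 to 5.95 CPM over both groups. *ERBB2* averaged 63.6 CPM in the low and 39.2 CPM in the high glucose libraries. Of the epithelial markers, *KRT18* averaged 233 CPM in the low and 170 CPM in the high glucose libraries, *KRT8* 131 and 88.3 CPM, *EPCAM* 4.50 and 6.996 CPM and *CDH1* 0.949 and 0.961 CPM, and *KRT19* was under the floor in all libraries. Of the other cell type markers in the table, *CDH5* and *MYH11* stayed below 0.63 CPM, *CD68* lay at 9.38 to 14.3 CPM in both groups, and *PECAM1* lay at 0.911 to 1.24 CPM in the low and 1.51 to 2.84 CPM in the high glucose libraries. The part of these in the clock gene results was not tested. High glucose replicate 1 stood apart from the other libraries. Across 11223 genes, the deviation of each library from the mean of the others in its group had a Spearman correlation with transcript length of -0.65 in that library, 0.25 to 0.47 in the other high glucose libraries and -0.13 to 0.06 in the low glucose libraries. For the other high glucose libraries that mean includes replicate 1, so their values are not independent of it. Results for the longest clock transcripts are therefore given with and without high glucose replicate 1.

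The DNA that the clock factors are known to read is shown for the promoters of 5 genes whose transcripts rose, as RefSeq windows of 300 bases on GRCh38.p14, from 250 bases before to 50 bases after a transcript start, written 5' to 3' on the strand of the gene. *ARNTL*, the other gene that rose, had no E-box form in its windows and is not shown. Capitals mark every match on either strand to 5 motifs, namely the E-box with the letters CACGTG, a variant of the E-box with the letters CACGTT, the D-box with the letters TTATGNAA, the half-site of the REV-ERB and ROR receptors with the letters AGGTCA, and the cyclic AMP element with the letters TGACGTCA. A match on the opposite strand appears as its reverse complement. None of the 15 windows of the clock genes matched the cyclic AMP element, which 1.85% of all windows hold. The windows are *PER1* at chr17:8152355-8152654 (minus strand), *PER2* at chr2:238288561-238288860 (minus strand, a start inside the span of the gene), *CRY1* at chr12:107093500-107093799 (minus strand), *NR1D1* at chr17:40100540-40100839 (minus strand) and the second of the *NR1D2* windows at chr3:23945871-23946170 (plus strand).
PER1: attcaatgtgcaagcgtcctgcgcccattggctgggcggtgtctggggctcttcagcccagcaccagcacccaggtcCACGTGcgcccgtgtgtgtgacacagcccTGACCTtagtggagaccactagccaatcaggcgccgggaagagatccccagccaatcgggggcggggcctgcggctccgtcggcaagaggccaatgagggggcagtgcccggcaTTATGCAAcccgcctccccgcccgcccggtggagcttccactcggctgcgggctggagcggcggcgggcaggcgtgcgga
PER2: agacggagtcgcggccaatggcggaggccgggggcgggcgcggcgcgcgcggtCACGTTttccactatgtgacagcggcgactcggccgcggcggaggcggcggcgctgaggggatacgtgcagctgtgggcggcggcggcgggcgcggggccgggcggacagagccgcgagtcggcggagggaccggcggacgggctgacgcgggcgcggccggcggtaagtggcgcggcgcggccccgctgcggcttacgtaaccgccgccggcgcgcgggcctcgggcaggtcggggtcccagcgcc
CRY1: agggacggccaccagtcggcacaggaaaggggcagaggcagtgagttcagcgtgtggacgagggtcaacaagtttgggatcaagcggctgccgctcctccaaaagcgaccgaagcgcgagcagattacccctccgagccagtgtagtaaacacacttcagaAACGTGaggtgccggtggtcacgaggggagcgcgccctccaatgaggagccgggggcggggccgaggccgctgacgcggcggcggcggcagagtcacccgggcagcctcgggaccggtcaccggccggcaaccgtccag
NR1D1: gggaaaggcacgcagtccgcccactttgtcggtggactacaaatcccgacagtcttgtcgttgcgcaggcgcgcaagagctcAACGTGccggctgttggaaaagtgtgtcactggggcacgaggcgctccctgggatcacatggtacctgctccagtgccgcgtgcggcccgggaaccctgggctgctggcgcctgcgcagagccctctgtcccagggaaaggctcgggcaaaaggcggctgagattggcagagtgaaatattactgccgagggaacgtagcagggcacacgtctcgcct
NR1D2: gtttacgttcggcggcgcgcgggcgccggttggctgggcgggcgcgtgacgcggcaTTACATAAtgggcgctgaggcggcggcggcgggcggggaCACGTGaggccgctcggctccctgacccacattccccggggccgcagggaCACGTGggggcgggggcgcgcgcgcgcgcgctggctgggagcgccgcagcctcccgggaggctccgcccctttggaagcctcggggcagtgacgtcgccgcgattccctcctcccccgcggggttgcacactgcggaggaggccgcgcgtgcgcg

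Positions of the motifs were counted from the first transcribed base as 1, with the base before it as -1. The *PER1* window had an E-box starting at -173, a half-site at -144 and a D-box at -30. The *NR1D2* window had a pair of E-boxes, starting at -155 and -105, and a D-box on the opposite strand at -194 (TTACATAA as written). The windows of *PER2*, *CRY1* and *NR1D1* each had the variant E-box, starting at -197, -89 and -168. All 10 clock genes matched a window, 15 windows in all, and 7 of the 15 windows (46.7%) had either form of the E-box. Of all 35116 promoter windows in the RefSeq table, 12.2% had either form, 7.26% the E-box, 5.34% the variant, 3.30% the D-box and 13.8% the half-site. By gene, an E-box form was found for 5 of the 6 genes whose transcripts rose and for 2 of the other 4, *CLOCK* and *CRY2*, beside 14.5% of all 27305 genes with a window. Of the other clock pathway genes described further on, 30 had a window, and 9 of these had an E-box form, in 10 of 57 windows (17.5%). The window of *DBP* had no match to any motif searched. A match describes the letters in a window and does not show that a factor binds there. Bases outside the windows were not searched, so an absent match does not show that a gene lacks the element.

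At 25 mM glucose, 6 of the 10 clock transcripts were higher than at 5 mM: *ARNTL*, *PER1*, *PER2*, *CRY1*, *NR1D1* and *NR1D2*, at 1.39-fold to 2.95-fold of the low glucose mean. The differences for *CLOCK*, *PER3*, *CRY2* and *DBP* did not pass the test. None was called lower, since all 10 log2 changes were above 0. Calls are from limma on log2(CPM + 1), at an adjusted p under 0.05 over all genes. By this rule 46.8% of all 21059 genes were called in either direction, 22.0% were called higher, and 29.5% of the 14372 genes with a mean of at least 1 CPM, which all 10 clock genes reached, were called higher. Without *PER1*, 5 of 9 were higher. The median log2 change was 0.54 over the 10 clock genes, against -0.01 over all genes and -0.04 over genes with a mean of at least 1 CPM. In the same 6 genes, every high glucose library was above every low glucose library, a separation found in 28.4% of genes with a mean of at least 1 CPM. In bulk RNA, a change in the share of cells that express a gene and a change in RNA per cell cannot be told apart.

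**Figure D1:**
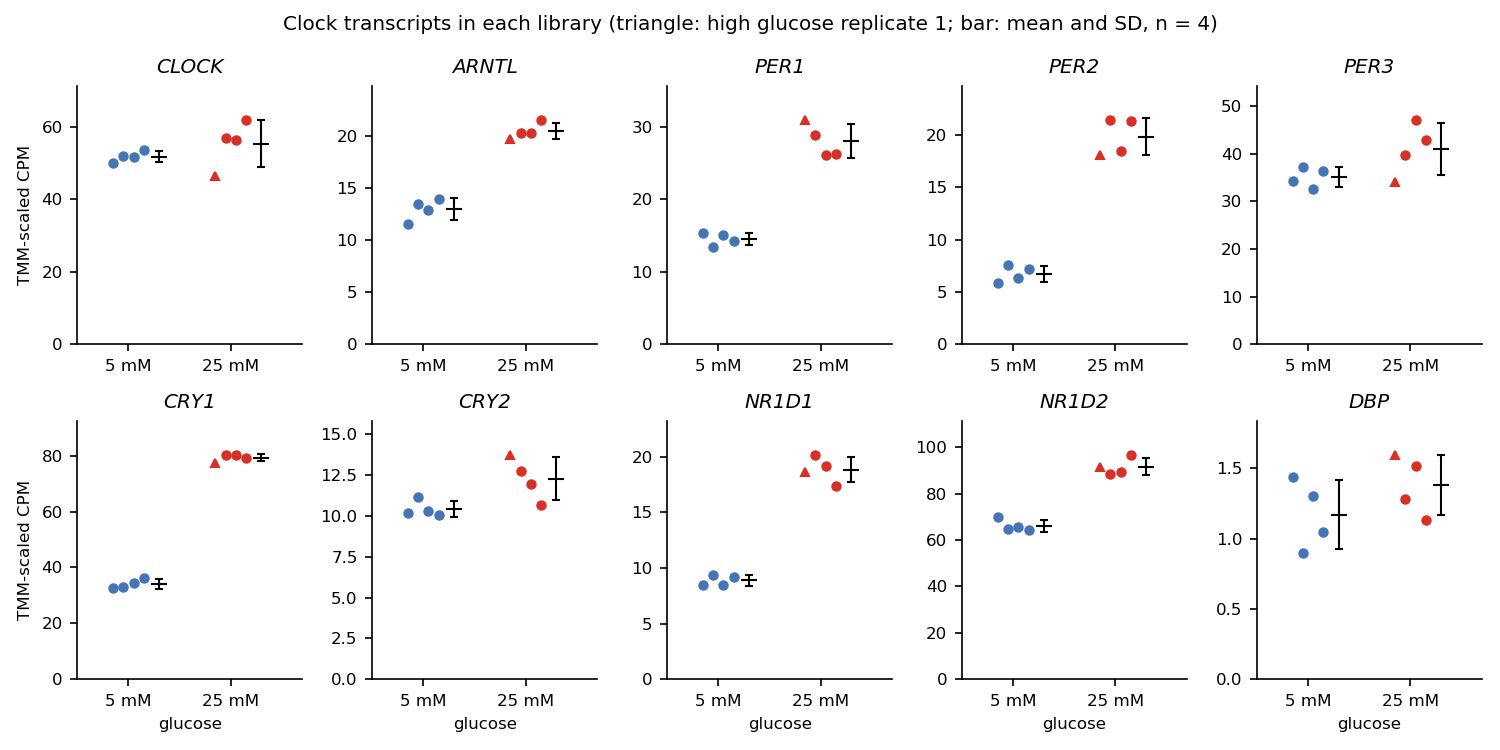
TMM-scaled CPM of the 10 clock transcripts in each library at 5 mM (blue) and 25 mM glucose (red), with the mean and SD of 4 libraries as black bars and high glucose replicate 1 as a triangle. The groups do not overlap for *ARNTL*, *PER1*, *PER2*, *CRY1*, *NR1D1* and *NR1D2*, and they overlap for *CLOCK*, *PER3*, *CRY2* and *DBP*.

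Of the activators, *ARNTL* was called higher and *CLOCK* was not. *CLOCK* (ENSG00000134852.15, chr4:55427903-55546909, minus strand) encodes the PAS domain partner of ARNTL in the activating pair. It was measured at 50.01, 51.9, 51.6 and 53.6 CPM in low glucose replicates 1 to 4 and at 46.3, 56.8, 56.3 and 61.9 CPM in high glucose replicates 1 to 4. Replicate 1 of high glucose was the lowest of all libraries and the other high glucose libraries were above all low glucose libraries, so the groups overlapped through that library. The log2 change was 0.09 ± 0.08 (SE, 95% interval -0.11 to 0.28, adjusted p = 0.438). Without high glucose replicate 1 it was 0.17 with an adjusted p of 0.0153, and without high glucose replicate 4 it was 0.03 with an adjusted p of 0.799. The transcript, with 10470 bases, is the longest of the clock transcripts here, and removing the length trend from each library gave 0.10 with an adjusted p of 0.0515. Removing the trend with GC content gave a value of -0.0031 (adjusted p = 0.975), so the direction for *CLOCK* did not hold.

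*ARNTL* (ENSG00000133794.17, chr11:13276652-13387266, plus strand) encodes the partner whose transcript is the known target of the REV-ERB and ROR receptors. It stood at 11.6, 13.5, 12.9 and 14.0 CPM in the low glucose libraries and at 19.8, 20.3, 20.3 and 21.6 CPM in the high glucose libraries. The groups did not overlap, and the high glucose mean of 20.5 ± 0.779 CPM (SD, n = 4) was 1.58-fold of the low glucose mean of 13.0 ± 1.04 CPM. The log2 change was 0.62 ± 0.06 (SE, adjusted p = 0.000155). The CPM of *ARNTL* relative to that of *CLOCK* within a library averaged 0.251 ± 0.0136 (SD, n = 4) in the low glucose group and 0.373 ± 0.0360 in the high glucose group, which did not overlap. This ratio was 0.427 in high glucose replicate 1 and 0.349 to 0.360 in the other high glucose libraries. The half-site AGGTCA lay in the first *ARNTL* window at position 32, in the transcribed part.

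Of the period genes, whose proteins form the inhibitory complex with the cryptochromes, *PER1* and *PER2* rose. *PER1* (ENSG00000179094.16, chr17:8140472-8152404, minus strand), a gene also known to respond rapidly to cyclic AMP and glucocorticoids, stood at 15.3, 13.4, 15.1 and 14.2 CPM at low glucose and at 30.99, 28.9, 26.1 and 26.2 CPM at high glucose. All high glucose libraries were far above the low glucose libraries, at 1.93-fold of their mean, with a log2 change of 0.90 ± 0.07 (SE, adjusted p = 4.85e-05). *PER2* (ENSG00000132326.12, chr2:238244044-238300065, minus strand) stood at 5.83, 7.54, 6.29 and 7.21 CPM at low glucose and at 18.1, 21.4, 18.5 and 21.3 CPM at high glucose.

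*PER2* had the largest rise of the 10 clock genes, to 2.95-fold, with a log2 change of 1.43 ± 0.09 (SE, adjusted p = 2.5e-05). Only 0.814% of genes with a mean of at least 1 CPM had a larger log2 rise. The estimated reads behind it ran from 70 to 269 per library. The *PER2* transcript has 6380 bases, and without high glucose replicate 1 its log2 change was 1.475 with an adjusted p of 7.79e-05. Of the 31-base sequence words of this transcript, 3.28% also occur in another gene, against 0.0430% for *PER1* and none for the other 8 clock genes.

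*PER3* (ENSG00000049246.14, chr1:7784291-7845177, plus strand), the period gene regarded as the least needed for rhythm, stood at 34.3, 37.1, 32.5 and 36.4 CPM at low glucose and at 34.1, 39.8, 47.1 and 42.7 CPM at high glucose. High glucose replicate 1 lay within the low glucose range and the other high glucose libraries above it. The log2 change was 0.21 ± 0.10 (SE, 95% interval -0.02 to 0.44, adjusted p = 0.124). Without high glucose replicate 1 it was 0.29 with an adjusted p of 0.0157, and without high glucose replicate 3 it was 0.14 with an adjusted p of 0.251. Its transcript has 6365 bases. Of the *PER3* exon bases, 10.7% overlap *UTS2* and 5.93% overlap ENSG00000236266 on the other strand. Neither of these genes is in the expression table.

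Within a library, the CPM of *PER1* divided by that of *PER3* averaged 0.416 ± 0.0484 (SD, n = 4) in the low glucose group and 0.701 ± 0.156 in the high glucose group, and that of *PER2* 0.191 ± 0.0145 and 0.490 ± 0.0674. Neither ratio overlapped between the groups. *PER1* over *PER3* was 0.909 in high glucose replicate 1 and 0.553 to 0.7275 in the other high glucose libraries. *PER2* over *PER3* was 0.530 in that replicate and 0.392 to 0.539 in the others. Per length, the period transcripts summed to 9.67 ± 0.269 CPM per kilobase in low glucose and 15.5 ± 0.488 in high glucose libraries. Of that sum, *PER3* made up 57.0% ± 1.85 at low and 41.3% ± 4.49 at high glucose, and *PER2* rose from 10.9% ± 1.05 to 20.0% ± 1.56.

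The cryptochromes, the stronger repressors of the activating pair, differed in size of change. *CRY1* (ENSG00000008405.12, chr12:106991364-107093549, minus strand) stood at 32.7, 33.0, 34.4 and 36.3 CPM at low glucose and at 77.4, 80.1, 80.4 and 79.2 CPM at high glucose. The high glucose libraries lay close together and far above every low glucose library. The mean was 2.33-fold of that at low glucose, with a log2 change of 1.20 ± 0.04 (SE, adjusted p = 1.43e-06), the smallest adjusted p of the 10 clock genes.

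*CRY2* (ENSG00000121671.11, chr11:45847118-45883244, plus strand) stood at 10.2, 11.2, 10.3 and 10.1 CPM at low glucose and at 13.8, 12.8, 12.0 and 10.7 CPM at high glucose. High glucose replicate 4 lay within the low glucose range and the other high glucose libraries above it. The log2 change was 0.21 ± 0.08 (SE, 95% interval 0.03 to 0.40), which missed the threshold with an adjusted p of 0.061. Without high glucose replicate 4 it was 0.27 with an adjusted p of 0.0144, without high glucose replicate 1 it was 0.16 with an adjusted p of 0.112, and with the GC trend removed 0.35 with an adjusted p of 0.0032. The CPM of *CRY1* was 3.28 ± 0.275 times (SD, n = 4) that of *CRY2* at low glucose and 6.51 ± 0.757 times at high glucose. Per length, *CRY1* made up 81.9% ± 1.25 of the cryptochrome transcripts at low and 89.9% ± 1.06 at high glucose.

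**Figure D2:**
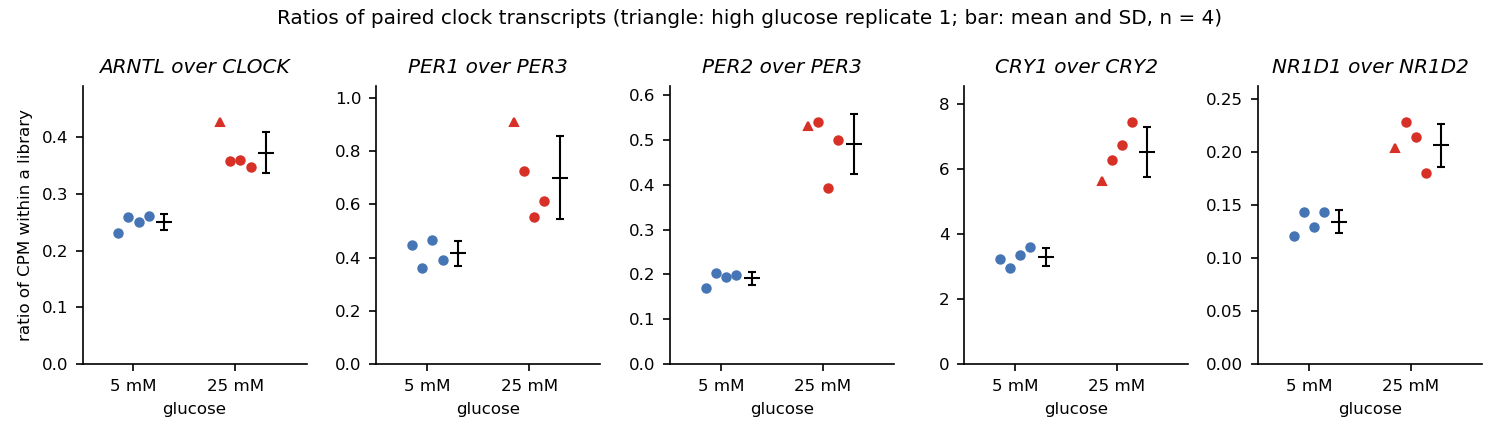
Ratio of the CPM of paired clock transcripts within each library at 5 mM (blue) and 25 mM glucose (red), with the mean and SD of 4 libraries in black and high glucose replicate 1 as a triangle. In all 5 panels the high glucose libraries lie above the low glucose libraries, and *CRY1* over *CRY2* goes from a mean of 3.28 to 6.51. In each pair the first gene had the larger log2 change, so the ratios restate the results of the single genes. The share of other gene pairs with such a separation was not computed.

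Both REV-ERB receptors, which repress *ARNTL* and are themselves E-box targets, were higher at high glucose. *NR1D1* (ENSG00000126368.6, chr17:40092793-40100589, minus strand) stood at 8.46, 9.32, 8.50 and 9.22 CPM at low glucose and at 18.7, 20.2, 19.1 and 17.4 CPM at high glucose. The groups were well apart, at 2.12-fold, with a log2 change of 1.01 ± 0.06 (SE, adjusted p = 1.28e-05). Of the exon bases of *NR1D1*, 473 of 2630 (17.98%) overlap *THRA*, a thyroid hormone receptor gene on the other strand. *THRA* ranged from 56.8 to 58.5 CPM in the low and from 57.0 to 63.2 CPM in the high glucose libraries, and whether counting in this table used the strand is not given in the sources used here. The means of *NR1D1* were 8.88 ± 0.460 and 18.9 ± 1.16 CPM (SD, n = 4), and those of *THRA* 57.4 and 61.0 CPM.

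*NR1D2* (ENSG00000174738.13, chr3:23945286-23980617, plus strand) stood at 70.1, 64.9, 65.6 and 64.4 CPM at low glucose and at 91.8, 88.7, 89.6 and 97.0 CPM at high glucose. It had the highest CPM of the 10 clock genes in both groups, with no overlap between them, and its rise of 1.39-fold was the smallest of those called (log2 change 0.46 ± 0.04 SE, adjusted p = 6.96e-05). The CPM of *NR1D1* relative to *NR1D2* averaged 0.134 ± 0.0112 (SD, n = 4) in the low glucose group and 0.206 ± 0.0203 in the high glucose group. The REV-ERB transcripts together went from 16.0 ± 0.394 to 24.7 ± 0.320 CPM per kilobase. The repressors and their target *ARNTL* were higher in the same libraries.

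*DBP* (ENSG00000105516.10, chr19:48630030-48637379, minus strand), an output factor that is a direct target of CLOCK and ARNTL in many tissues, was the least abundant of the clock genes. It stood at 1.43, 0.894, 1.30 and 1.05 CPM at low glucose and at 1.60, 1.28, 1.52 and 1.13 CPM at high glucose, and the groups overlapped. These values rest on an estimated 11 to 23 reads per library. The log2 change on the scale with a pseudocount of 1 was 0.14 ± 0.10 (SE, 95% interval -0.10 to 0.38, adjusted p = 0.326), which understates changes at this level. With a pseudocount of 0.1 the log2 change was 0.23 with an adjusted p of 0.372. No difference was called, and a change within these intervals is not excluded. Of its exon bases, 10.2% overlap *SPHK2* on the other strand, which stood at 3.85 to 6.01 CPM.

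**Figure D3:**
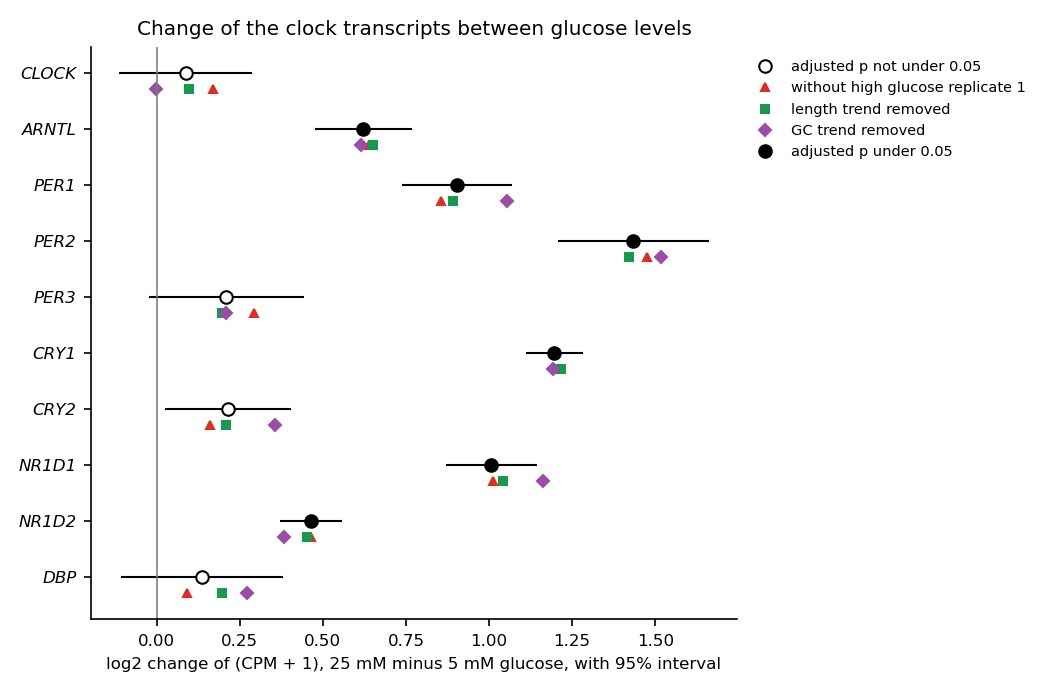
Log2 change of (CPM + 1) at 25 mM against 5 mM glucose for the 10 clock transcripts (circles, filled at an adjusted p under 0.05) with 95% intervals, and the change without high glucose replicate 1 (triangles), with the length trend removed (squares) and with the GC trend removed (diamonds). *PER2* (1.43) and *CRY1* (1.20) lie farthest to the right, the 6 filled genes stay above 0.38 in all 4 settings, and *CLOCK* reaches -0.0031 with the GC trend removed.

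Levels of different genes were compared per kilobase of the canonical transcript. At low glucose *NR1D2* was the most abundant clock transcript with 12.7 ± 0.499 CPM per kilobase (SD, n = 4), followed by *CRY1* with 11.4 ± 0.552, *PER3* with 5.51 ± 0.328, *CLOCK* with 4.95 ± 0.141, *ARNTL* with 4.66 ± 0.372, *NR1D1* with 3.38 ± 0.175, *PER1* with 3.11 ± 0.189, *CRY2* with 2.52 ± 0.125, *PER2* with 1.05 ± 0.124 and *DBP* with 0.539 ± 0.113. In this order the ranges overlapped between *PER3*, *CLOCK* and *ARNTL* and between *NR1D1* and *PER1*, and the other neighbours were apart. At high glucose *CRY1* came first with 26.5 ± 0.449 CPM per kilobase, before *NR1D2* with 17.5 ± 0.708, *ARNTL* with 7.35 ± 0.279 and *NR1D1* with 7.17 ± 0.439. *PER3* followed with 6.43 ± 0.858, then *PER1* with 5.999 ± 0.505, *CLOCK* with 5.29 ± 0.625, *PER2* with 3.11 ± 0.283, *CRY2* with 2.97 ± 0.317 and *DBP* with 0.636 ± 0.0987. Neighbours from *ARNTL* to *CLOCK* overlapped at high glucose, as did *PER2* and *CRY2*. The order rests on 1 transcript length per gene and would shift with another isoform.

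**Figure D4:**
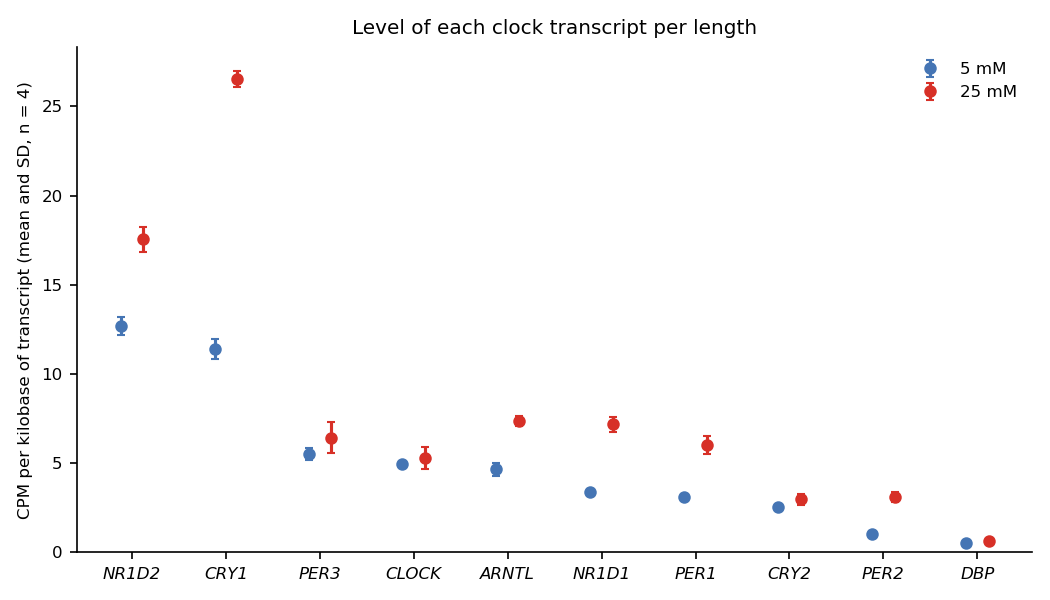
Level of each clock transcript in CPM per kilobase of transcript at 5 mM (blue) and 25 mM glucose (red), mean and SD of 4 libraries, ordered by the low glucose level. *CRY1* goes from 11.4 to 26.5 and passes *NR1D2*, and *DBP* is lowest in both groups.

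The other genes of the clock pathway were described by role from a list of 34. Of these, 16 were called higher and 4 lower, and 14 were not called. Of all genes, 46.8% were called, 22.0% higher and 24.8% lower, and of genes with a mean of at least 1 CPM, 62.1% were called and 29.5% were higher. The counts by role, of 2 to 8 genes each, are descriptions to be read against these shares. Their median log2 change was 0.16. Of a pair of ROR receptors, which activate *ARNTL* from the elements that the REV-ERB receptors also use, *RORA* rose and *RORB* fell. *RORA* stood at 3.83, 3.81, 3.40 and 3.50 CPM in the low glucose libraries and at 7.20, 10.1, 9.57 and 12.2 CPM at high glucose (log2 change 1.20 ± 0.14 SE, adjusted p = 0.000406). The *RORA* transcript has 10827 bases, and without high glucose replicate 1 its log2 change was 1.32 with an adjusted p of 9.54e-05. *RORB* ranged from 33.5 to 39.5 CPM in the low and from 22.9 to 29.2 CPM in the high glucose libraries (log2 change -0.42 ± 0.08 SE, adjusted p = 0.00475). *RORB* remained the more abundant, with 91.9% ± 0.361 (SD, n = 4) of their summed CPM per kilobase in low and 75.9% ± 2.23 in high glucose libraries.

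Of 4 further repressors of CLOCK and ARNTL, 2 were called higher, beside 22.0% of all genes and 29.5% of those with a mean of at least 1 CPM. *BHLHE40* (DEC1), which binds the same E-boxes, ranged from 76.9 to 81.3 CPM in the low and from 126 to 135 CPM in the high glucose libraries (log2 change 0.71 ± 0.03 SE, adjusted p = 3.7e-06). *CIART* (CHRONO) ranged from 1.68 to 2.15 CPM and from 3.60 to 5.33 CPM, in the same order (log2 change 0.92 ± 0.12 SE, adjusted p = 0.000635). *CIPC* had a log2 change of 0.08 (adjusted p = 0.247), and the paralog *BHLHE41* was not called. Of the factors that share the D-box with DBP, the repressor *NFIL3* rose from a mean of 42.1 ± 1.71 to 81.3 ± 3.53 CPM (SD, n = 4, adjusted p = 4.61e-06) and the activator *TEF* from 24.0 ± 1.96 to 30.7 ± 2.44 CPM (adjusted p = 0.00684), while *HLF* was under the floor. Of the activator paralogs, *ARNTL2* was called higher at 1.12 ± 0.185 against 1.4995 ± 0.110 CPM (adjusted p = 0.0274), a call lost in 9 of 17 alternative settings, and *NPAS2*, a stand-in for CLOCK, had a log2 change of 0.16 with an adjusted p of 0.0667.

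The enzymes that set how long PER and CRY proteins last were called in 5 of 8 cases, 4 higher and 1 lower, close to the share over genes with a mean of at least 1 CPM (62.1%). *FBXW11*, a ubiquitin ligase subunit used for PER proteins, rose from 97.2 ± 3.34 to 129 ± 6.77 CPM (SD, n = 4, adjusted p = 0.000216), and *CSNK1D*, a kinase of PER proteins, from 182 ± 6.21 to 211 ± 7.30 CPM (adjusted p = 0.00191). The log2 change of *CSNK1D* was 0.21, and 0.36 with the GC trend removed. *CSNK1E*, a further kinase of PER proteins, fell from 66.1 ± 2.50 to 47.7 ± 1.10 CPM (log2 change -0.46 ± 0.03 SE, adjusted p = 2.98e-05). Of the corepressors that work with the REV-ERB receptors, *TBL1XR1* rose (log2 change 0.26 ± 0.03 SE, adjusted p = 0.000433, and 0.15 with the GC trend removed) and *TBL1X* fell (-0.29 ± 0.05, adjusted p = 0.00294). The deacetylase *HDAC3* had a log2 change of 0.07 ± 0.06 (SE, adjusted p = 0.396), which passed with the length trend removed (0.14, adjusted p = 0.0131) and with the GC trend removed (0.15, adjusted p = 0.0457). *NCOR1*, with a transcript of 10705 bases, was not called. It stood at 86.8 CPM in high glucose replicate 1 and at 125 to 134 CPM in the other high glucose libraries. The low glucose libraries had 117 to 122 CPM.

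Of 7 genes that carry signals into the clock, *SIRT1*, an NAD-dependent deacetylase, rose from 34.5 ± 2.24 to 81.7 ± 2.05 CPM (SD, n = 4, log2 change 1.22 ± 0.05 SE, adjusted p = 3.19e-06). *SIK1*, a kinase that limits cyclic AMP signals, rose from 28.6 ± 1.82 to 62.0 ± 3.10 CPM (log2 change 1.09 ± 0.05 SE, adjusted p = 7.93e-06). *TSC22D3* (GILZ), induced by glucocorticoids, fell from 33.2 ± 1.80 to 15.7 ± 3.19 CPM (log2 change -1.05 ± 0.13 SE, adjusted p = 0.000518). The other 4, with the glucocorticoid receptor *NR3C1* and its target *FKBP5* among them, were not called. Of 4 further outputs, the cell cycle kinase *WEE1* (log2 change 0.77 ± 0.06 SE, adjusted p = 5.75e-05), the repressor *KLF10* (0.87 ± 0.04, adjusted p = 5.27e-06) and *NAMPT*, which makes NAD (0.32 ± 0.03, adjusted p = 0.000164, and 0.18 with the GC trend removed), rose, and *ALAS1* was not called.

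**Figure D5:**
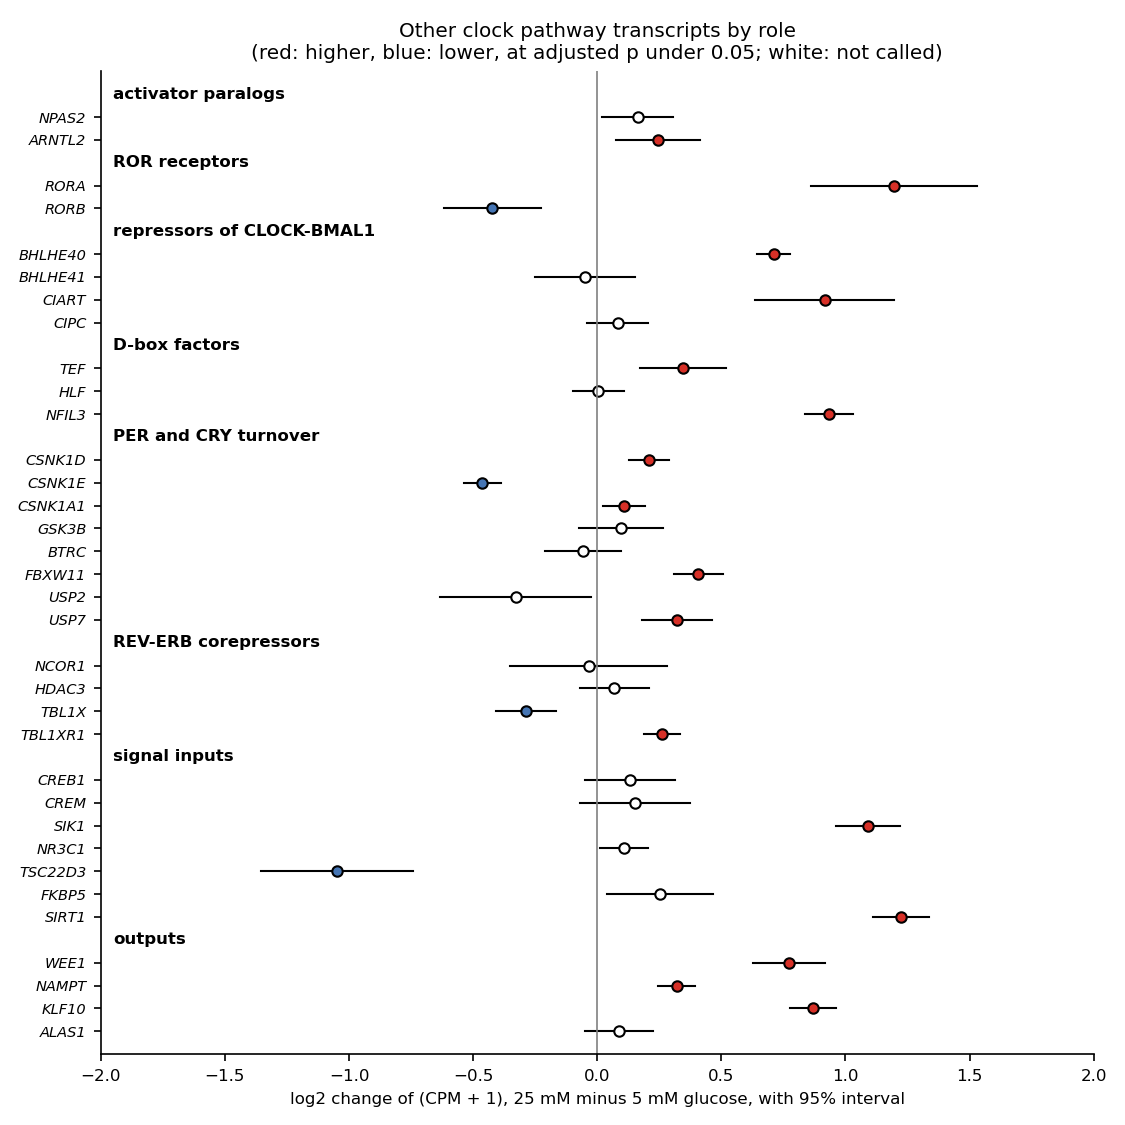
Log2 change of (CPM + 1) at 25 mM against 5 mM glucose, with 95% intervals, for 34 other clock pathway transcripts grouped by role, red where called higher, blue where called lower and white where not called. *SIRT1* (1.22) and *RORA* (1.20) lie farthest to the right and *TSC22D3* (-1.05) farthest to the left.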

How the data were processed

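RNA from 8 libraries was sequenced on an Illumina HiSeq machine per the labels. The authors deposited 1 table of CPM values, which they scaled with TMM factors from edgeR. The submitters' processing notes name hg38, while the study's methods, written first for tumors, name another build, a TruSeq stranded kit, Trimmomatic and TopHat. Whether these apply to this table is not stated, and its counter and strand setting are not given in the sources used here. Of the 21077 lines, 18 Y copies of pseudoautosomal genes were left out. Of the values above 0 and under 200 reads, 72.0% to 73.3% lay within 0.005 reads of a whole number, so whole reads were not recovered and no count model was used. Depth and floors cover counting error only.

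The groups were compared on log2(CPM + 1) by limma 3.58.1 under R 4.3.3 (mean-variance trend, 2-sided), with Benjamini-Hochberg adjustment over 21059 genes. Alternatives were another pseudocount, a filter at 1 CPM, 2 other scalings, removal of length and GC trends, library weights, no variance trend, a replicate block and leaving out each library. Other pathway genes are named where they have one of the 3 smallest adjusted p-values of their role at a mean of at least 1 CPM, or an absolute log2 change of at least 1 at that level, and a few not called are listed by name to account for a role. The pathway list was compiled from general knowledge, and a few of its genes are not reported here. The clock genes, lists and tests were chosen with earlier results of these data known. Positions and promoters are from RefSeq (GRCh38.p14), and transcript lengths, GC content and exon overlaps from GENCODE 44 on GRCh37.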

Additional observations from a re-analysis of the deposited data

Results flagged for a closer look

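In 64 groups of 4 values (10 clock genes, 21 named pathway genes and the estimated reads, each at both glucose levels), 2 had a library whose gap to the nearest other value, divided by the range of the group, was above Dixon's 95% critical value. Chance alone marks about 1 in 20 such groups, which is 3.2 of 64. Neither was for a clock gene. At low glucose the ratio was 0.942 for *CSNK1E*, where replicate 2 stood at 62.4 CPM and the others at 67.3 to 67.6 CPM. The estimated reads of the low glucose libraries had a ratio of 0.864, with 12104248 in replicate 4 and 10389649 to 10622964 in the others. All low glucose values of *CSNK1E* were above those at high glucose.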

How the results depend on the processing

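The 6 clock genes called higher (*ARNTL*, *PER1*, *PER2*, *CRY1*, *NR1D1*, *NR1D2*) kept that call in all 17 alternatives, and no clock gene was called lower in any. The count of clock genes called was 6 to 8, and leaving out 1 library at a time also gave 6 to 8. The count of other pathway genes called was 18 to 24, also over the left-out libraries. Beside these, the main fit called 9849 of all 21059 genes, and the alternatives that tested all genes called 8899 to 10851. With the filter at 1 CPM, 9631 of 14372 genes were called. The settings with 8 clock genes called, library weights and without high glucose replicate 1, called 10462 and 10156 of all genes. *PER3* passed in 4 alternatives, *CRY2* in 5 and *CLOCK* in 1, and *DBP* in none. The 1 reversed value was that of *CLOCK* with the GC trend removed (-0.0031, adjusted p = 0.975), and the cause was not tested. Over 31 named genes and 527 values, 502 kept their direction and their side of the threshold, 9 lost a call, all for *ARNTL2*, and 15 gained one. Among called genes, the GC correction moved *CSNK1D* (0.36), *NAMPT* (0.18) and *TBL1XR1* (0.15) by over 1.5 times, with no call lost, and a pseudocount of 0.1 moved *ARNTL2* (0.40). For *DBP*, not called, the range was 0.07 (without low glucose replicate 2) to 0.27 (GC trend removed).

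No pairing by replicate number was detected: same-numbered libraries had correlations of deviations of -0.042 to 0.052. Such values do not show that the libraries were unpaired. With the replicate block, 6 clock genes and 21 other pathway genes were called, beside 8921 of all 21059 genes. At this depth, changes of genes near the floor, such as *DBP* and *ARNTL2*, are the least precise.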
